A study of Rattus norvegicus with 18 samples.

Results

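The nuclear-encoded subunits of oxidative phosphorylation are described here in tissue of the rat ventral tegmental area (VTA), a midbrain source of dopamine projections. Members were chosen by gene symbol alone, as the Nduf, Sdh, Uqcr, Cyc1, Cox and Atp5 genes that name subunits of complexes I to V. Of 38445 genes in the files, 89 matched, 37 of them in complex I, 4 in complex II, 9 in complex III, 11 in complex IV and 28 in complex V. Ndufa4 was placed in complex IV, to which its protein belongs despite its name. The 18 rats were adult male wild-type Sprague-Dawley animals, 6 per group, and each gave 1 library. Withdrawal rats (numbered 13 to 18) had been fed Lieber-DeCarli liquid diet containing ethanol at 9% v/v over 15 or 16 days, and tissue was taken 24 h after ethanol ended. Chronic ethanol rats (7 to 12) had the same diet, and their tissue was taken at 0 h of withdrawal. Control rats (1 to 6) had the control form of the diet.

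Oxidative phosphorylation makes most of the ATP that neurons use. Complexes I and II pass electrons from NADH and succinate to ubiquinone, complex III passes them on to cytochrome c, and complex IV gives them to oxygen. Complexes I, III and IV pump protons as they do so, and complex V, the ATP synthase, lets the protons flow back to make ATP. Every complex but II also holds subunits encoded by the mitochondrial DNA, which are not analysed here, so all values concern the nuclear share. In a piece of tissue, fewer cells of a type and less RNA per cell cannot be told apart.

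Nuclear subunit genes lie on many chromosomes, and their start regions are known to hold sites for the factors NRF1, GABPA (an ETS factor) and YY1. RefSeq start regions of the GRCr8 assembly, from 250 bases before to 50 bases after the start, were found for 75 of the 89 members and for 68 of the 77 that passed the filter on low counts. The letters searched on both strands were the NRF1 motif, CCGGAAG for ETS factors, the YY1 motif, GGGCGG for SP1 and TATAAA for the TATA box, and none of these motifs contains another. The start regions shown here are those of 5 members, taken from the 5 complexes, and that of Ndufc1, the member with the lowest p in the tests described further on. All of these 5 hold at least 1 NRF1, ETS or YY1 match, whereas 37 of the 68 regions of tested members do. The 5 therefore do not show how common the motifs are. Capitals mark NRF1, ETS and YY1 letters of either strand, and each line runs 5′ to 3′ along the gene's strand.

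Ndufa5 (complex I, GRCr8 chr4:53971186-53971485, minus strand): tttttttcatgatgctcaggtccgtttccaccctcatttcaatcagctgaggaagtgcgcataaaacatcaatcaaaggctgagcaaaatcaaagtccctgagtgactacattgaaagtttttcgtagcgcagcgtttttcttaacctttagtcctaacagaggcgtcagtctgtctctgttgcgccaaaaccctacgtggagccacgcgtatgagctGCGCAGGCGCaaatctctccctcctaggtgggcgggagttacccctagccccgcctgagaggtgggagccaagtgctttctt
Ndufc1 (complex I, GRCr8 chr2:137601686-137601985, minus strand): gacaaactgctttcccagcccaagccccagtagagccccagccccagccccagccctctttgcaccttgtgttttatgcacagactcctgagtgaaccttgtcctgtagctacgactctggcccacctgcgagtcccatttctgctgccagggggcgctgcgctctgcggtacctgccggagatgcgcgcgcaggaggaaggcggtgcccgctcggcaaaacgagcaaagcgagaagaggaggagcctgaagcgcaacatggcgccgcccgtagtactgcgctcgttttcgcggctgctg
Sdha (complex II, GRCr8 chr1:30764303-30764602, plus strand): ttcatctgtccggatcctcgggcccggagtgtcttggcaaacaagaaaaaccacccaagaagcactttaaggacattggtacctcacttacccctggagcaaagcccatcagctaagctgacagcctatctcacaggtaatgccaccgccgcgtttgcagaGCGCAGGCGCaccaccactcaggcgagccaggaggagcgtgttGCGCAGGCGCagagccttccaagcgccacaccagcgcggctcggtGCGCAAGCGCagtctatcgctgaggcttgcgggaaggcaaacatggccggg
Uqcrc1 (complex III, GRCr8 chr8:118467973-118468272, plus strand): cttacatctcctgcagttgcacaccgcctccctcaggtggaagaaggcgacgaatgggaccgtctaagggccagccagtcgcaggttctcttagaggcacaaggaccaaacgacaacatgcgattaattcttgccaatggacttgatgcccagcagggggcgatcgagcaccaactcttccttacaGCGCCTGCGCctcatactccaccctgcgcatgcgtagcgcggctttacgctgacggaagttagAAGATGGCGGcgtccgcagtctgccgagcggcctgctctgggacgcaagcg
Cox4i1 (complex IV, GRCr8 chr19:65630133-65630432, plus strand): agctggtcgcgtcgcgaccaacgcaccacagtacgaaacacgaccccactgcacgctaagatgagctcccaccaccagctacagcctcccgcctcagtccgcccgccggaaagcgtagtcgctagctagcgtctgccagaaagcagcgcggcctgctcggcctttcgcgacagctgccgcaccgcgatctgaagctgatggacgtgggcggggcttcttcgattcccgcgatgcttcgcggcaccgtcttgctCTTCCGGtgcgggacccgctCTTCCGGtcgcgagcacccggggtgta
Atp5mc3 (complex V, GRCr8 chr3:79220615-79220914, minus strand): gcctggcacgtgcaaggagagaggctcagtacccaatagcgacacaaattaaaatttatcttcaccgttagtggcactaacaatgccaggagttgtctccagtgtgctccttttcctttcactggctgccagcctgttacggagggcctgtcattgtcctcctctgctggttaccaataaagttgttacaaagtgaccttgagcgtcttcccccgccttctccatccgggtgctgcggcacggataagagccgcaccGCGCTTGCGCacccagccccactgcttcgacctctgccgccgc

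The Sdha region held the NRF1 letters at 3 places, the Uqcrc1 region held NRF1 and YY1 letters once each, and the Cox4i1 region held the ETS letters at 2 places on the other strand. The Ndufa5 and Atp5mc3 regions held the NRF1 letters once each, whereas the Ndufc1 region held none of these 3 motifs. At least 1 of the 3 motifs was present in 54.4% of the start regions of tested members, against 12.8% of all 33469 regions in the table and 21.5% of those of all tested genes. The NRF1 letters were in 20.6% of the regions of tested members, against 4.25% of all and 7.79% of those of tested genes. The ETS letters were in 29.4% of members, against 8.75% of all and 14.1% of tested genes, and the YY1 letters in 11.8%, against 0.98% and 1.85%. The SP1 letters were in 39.7% of members, against 33.1% of all and 54.6% of tested genes, and the TATA letters in 10.3%, against 14.2% and 8.22%. A match describes the letters in this window and shows no binding.

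Libraries held 29.6 to 45.1 M counts of read pairs on genes, and the subunits took 1.06 to 1.26% of them. Levels are given in CPM, counts divided by the scaled library size, and 3 counts in a library stood for 0.0665 to 0.101 CPM, the upper limit for a gene at 0, which covers counting error only. Rats 5, 8, 13 and 17 stood apart in marker transcripts and were also left out together. Withdrawal rat 13 had a summed level of 15426 CPM over 3 pineal gland markers, against 2.59 to 9.68 CPM in the other libraries, and its 5 oligodendrocyte markers summed to 16271 CPM, against 29049.6 to 42586 CPM. Chronic ethanol rat 8 and control rat 5 had 34.4 and 37.1 CPM over 3 hindbrain Hox genes, against 0 to 2.01 CPM elsewhere. The 8 dopamine neuron markers summed to 152 CPM in withdrawal rat 17 and 290.1 CPM in chronic ethanol rat 8, against 837 to 2766 CPM in the others. Control rat 3 had 114 CPM over 3 markers of the meninges, against 17.8 to 78 CPM in the others.

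Of the 89 members, 77 passed the filter on low counts. Most of the 12 that did not are extra gene copies whose names resemble those of ATP synthase subunits (Atp5mc1l1, Atp5mc1l2, Atp5mc2l1, Atp5mc2l2, Atp5mgl1, Atp5mgl3, Atp5mgl4, Atp5mkl1, Atp5pdl1 and Atp5hl1). The others were Ndufa1, which had 0 counts in every library, and Ndufs6, which had 1 to 10. Atp5pb, the b subunit of the stalk that holds the ATP synthase head, passed with only 3 to 15 counts, and Ndufb11b with 6 to 49. Per the file headers, pairs that matched several places were left out of the counts, so a gene with a near-identical copy can lose reads. Whether this accounts for the low counts of Ndufa1, Ndufs6 and Atp5pb was not tested. The remaining 75 members had a mean of at least 1 CPM.

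Among these 75, levels per kilobase of exon were highest in complexes IV and V. The median member had 311 CPM per kilobase in complex IV (11 members) and 254 in complex V (17 members), against 130 in complex III (9 members), 131 in complex II (4 members) and 111 in complex I (34 members). Atp5f1b, the catalytic beta subunit of the ATP synthase, was the most abundant at a mean of 715 CPM per kilobase over 18 rats (range 665 to 806). Cox4i1, the main form of complex IV subunit 4, followed with 629 CPM per kilobase (range 555 to 839). In complex I the levels ran over a 9.31-fold range, from Ndufb8, an accessory subunit of the membrane arm, at 268 CPM per kilobase, to Ndufa10 at 28.8 CPM per kilobase. In complex III they ran from Uqcrh, the hinge protein, at 301 CPM per kilobase to Uqcrq at 35.1 CPM per kilobase, in complex IV down to Cox7a2 at 170.3 CPM per kilobase, and in complex V down to Atp5mpl, a small membrane proteolipid, at 56.5 CPM per kilobase. The 4 subunits of complex II lay within a 1.67-fold range, from Sdha, the flavoprotein that oxidises succinate, at 163 CPM per kilobase to Sdhd, a membrane anchor, at 97.5 CPM per kilobase. Because exon models of unequal completeness set the length, these ranges compare annotated genes and not protein amounts.

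**Figure D1:**
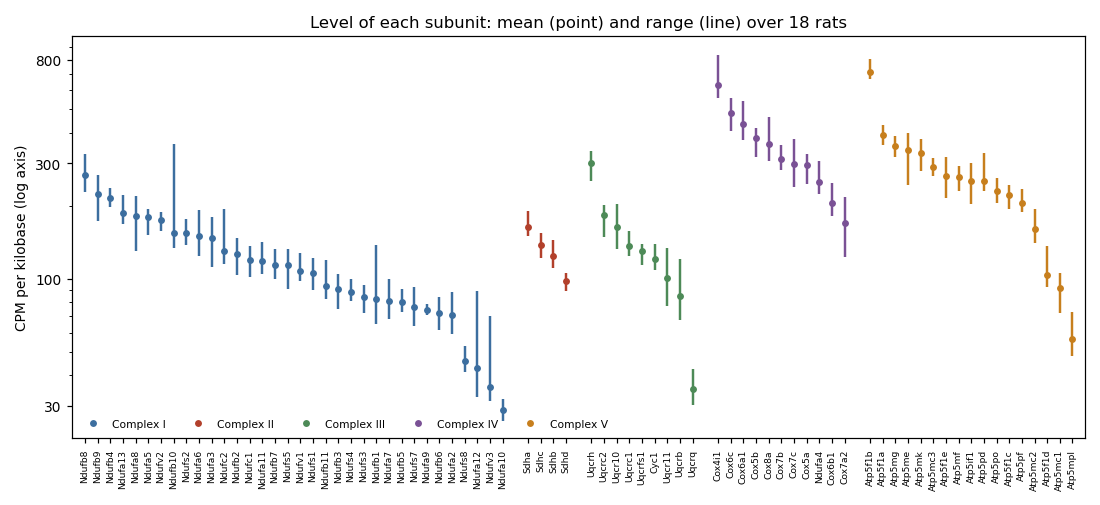
Level of each of the 75 subunits with a mean of at least 1 CPM, in CPM per kilobase of exon on a log axis, with the mean (point) and the range (line) over 18 rats, ordered within complexes I to V. Atp5f1b and Cox4i1 stand highest, and Ndufb10, Ndufa12 and Ndufv3 have the long upward lines of 1 library.

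The proportions of partner subunits differed little between the 3 groups. Atp5f1b was 185 ± 5.5% of Atp5f1a, the alpha subunit, in withdrawal, 184 ± 5.5% in chronic ethanol and 181 ± 7.09% in control (SD, n = 6), all per kilobase. Atp5if1, the inhibitor that stops the ATP synthase from running backwards, stood at 35.5 ± 4.26% of Atp5f1b in withdrawal, 36 ± 1.95% in chronic ethanol and 35.2 ± 3.09% in control. Sdhb, the iron-sulfur subunit of complex II, stood at 77.6 ± 7.19% of Sdha in withdrawal, 76.1 ± 4.06% in chronic ethanol and 75.8 ± 5.04% in control. Of the 3 genes that encode the c subunit of the rotor ring, Atp5mc3 was the highest, at 179 ± 21.9% of Atp5mc2 in withdrawal, 179.9 ± 6.19% in chronic ethanol and 188 ± 15.9% in control. In each of these ratios the ranges of the 3 groups overlapped.

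Alternative isoforms of subunits, which the symbol rule leaves out, were far lower than the forms it takes. Cox4i2, the form of subunit 4 known from lung, was at 0.33 ± 0.0583% of Cox4i1 per kilobase in withdrawal, 0.306 ± 0.0607% in chronic ethanol and 0.308 ± 0.0663% in control. The heart and muscle forms Cox7a1 and Cox6a2 stood at 0.343 ± 0.0668% of Cox7a2 and 1.56 ± 0.638% of Cox6a1 over all 18 rats. Ndufa4l2, a homologue of Ndufa4 that is known to be induced by low oxygen, stood at 1.33 ± 0.392% of Ndufa4 in withdrawal, 1.49 ± 0.282% in chronic ethanol and 1.11 ± 0.245% in control. Its log2 change of 0.47 ± 0.18 (SE) in chronic ethanol against control did not pass the test (adjusted p = 0.823). Cox6b2 averaged 0.864 CPM in withdrawal, 1.2 CPM in chronic ethanol and 0.905 CPM in control, and Cox8b averaged 0.272, 0.228 and 0.358 CPM in the same 3 groups. Ndufab1, Cycs and Cox7a2l, also on this list, were as abundant as members. Ndufab1, the acyl carrier protein that complex I also holds, had 98.4 ± 4.44 CPM in withdrawal, 103 ± 5.85 CPM in chronic ethanol and 107 ± 2.79 CPM in control. Cycs, the cytochrome c that carries electrons between complexes III and IV, had 158 ± 20.1 CPM in withdrawal, 161 ± 6.32 CPM in chronic ethanol and 167 ± 7.39 CPM in control. Cox7a2l, a factor of respiratory supercomplexes, had 173 ± 9.8 CPM in withdrawal, 189 ± 6.89 CPM in chronic ethanol and 182 ± 7.22 CPM in control. The list held 12 genes, of which 9 passed the filter and were tested. Of these 9, 7 were lower in withdrawal than in control and 6 lower than in chronic ethanol. In chronic ethanol 4 were lower than in control, and 0 were called. The lowest p values were those of Ndufab1 and Cox7a2l against control, at log2 changes of -0.12 and -0.07, and of Cox7a2l and Cox7a1 against chronic ethanol, at -0.13 and -0.29. In chronic ethanol against control, Cox6b2 followed Ndufa4l2, at 0.40.

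Subunits varied little from rat to rat. The biological coefficient of variation estimated by edgeR had a median of 9.55% over the 77 tested members, against 18.2% over all 17637 tested genes. At a mean level of 30 CPM or more, it was 9.04% for 73 members and 11.9% for all. The smallest was that of Ndufa9, an accessory subunit of complex I whose level varied by 3.32% over 18 rats. The largest, Atp5pb and Ndufb11b aside, were those of Ndufa12, Ndufb10 and Ndufv3, and for all 3 a single library stood far above the others. Withdrawal rat 13 had 245 CPM of Ndufb10, against 91.5 to 102 CPM in the other withdrawal rats, 91.2 to 99.8 CPM in chronic ethanol and 91.8 to 107 CPM in control. In the same rat Ndufa12 was at 49 CPM and Ndufv3 at 107 CPM, against at most 28.4 and 56.7 CPM in any other rat. Rat 13 was the highest of the 18 rats for 20 of the 75 members and the lowest for 19, and its median member lay at -0.03 from its own mean in log2 CPM. It was also the library with the pineal transcripts, whose part in these values was not tested.

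**Figure D2:**
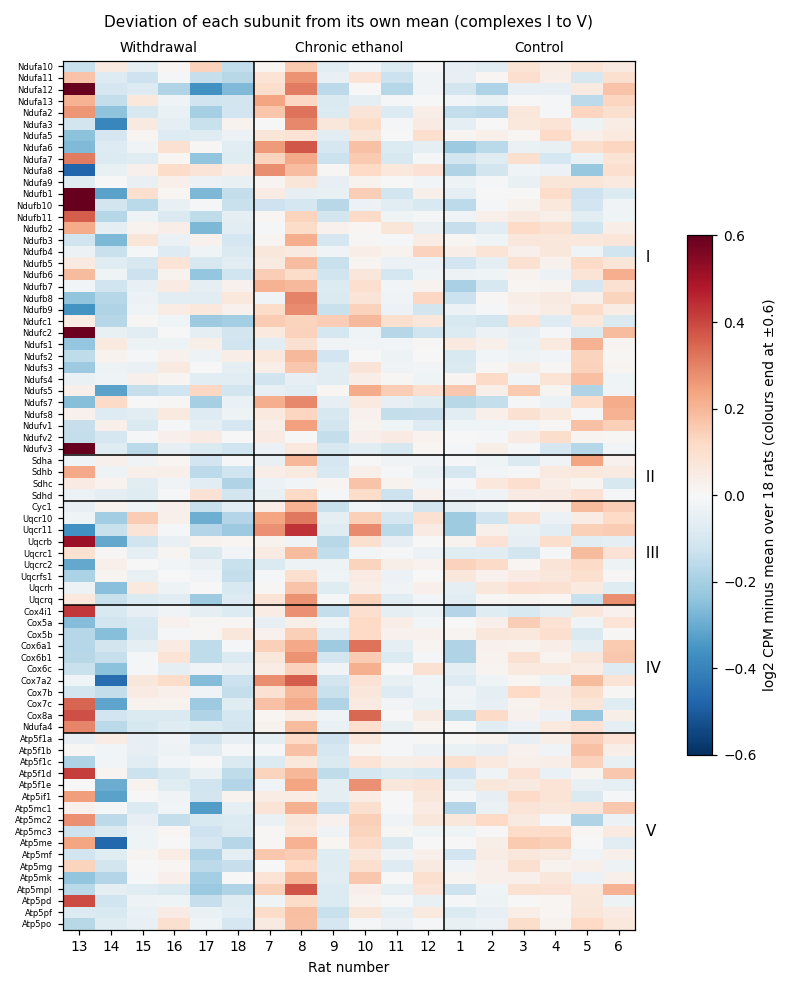
Deviation of each of the 75 subunits from its own mean over 18 rats, in log2 CPM, with rats in columns by group and subunits in rows by complex. Rat 13 shows both the strongest red and the strongest blue cells, rat 8 is red almost throughout, and chronic ethanol rat 9 and withdrawal rats 14, 17 and 18 are mostly blue.

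Taken as the median over members, single rats moved more than groups did. The median deviation of the 75 members from their own means, in log2 CPM, was -0.06 ± 0.04 in withdrawal, 0.03 ± 0.09 in chronic ethanol and 0.02 ± 0.04 in control (SD, n = 6). Chronic ethanol rat 8 stood highest at 0.17, with 68 of 75 members above their means, and it was the highest rat for 28 of them. Chronic ethanol rat 9 was low, at -0.08, with 67 members below their means. Withdrawal rats 14, 17 and 18 were at -0.10, -0.09 and -0.08, and withdrawal rat 16, at -0.01, was close to the overall mean. The ranges overlapped, from -0.10 to -0.01 in withdrawal, -0.08 to 0.17 in chronic ethanol and -0.05 to 0.06 in control. In chronic ethanol rat 8 the median deviation was 0.15 for complex I, 0.09 for complex II, 0.19 for complex III, 0.20 for complex IV and 0.17 for complex V. In most other rats the medians of complexes I to V also shared a sign. They differed in sign in withdrawal rat 13, with -0.11 for complex IV and 0.01 for complex II. They also did so in withdrawal rat 16, chronic ethanol rats 7 and 12 and control rat 2. Hindbrain markers were high and dopamine markers low in rat 8, dopamine markers were lowest in rat 17, and the part of this in their subunit levels was not tested.

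Withdrawal was compared with control to ask how expression differs a day after ethanol ends. No subunit passed the edgeR quasi-likelihood test at an adjusted p of 0.05 over all genes, and the background was the same, with 0% of all 17637 genes called. Subunits nevertheless lay slightly lower in withdrawal: 62 of 77 were lower, with a median log2 change of -0.06, against 46.3% of all genes lower and a median of 0.01. At an unadjusted p under 0.05, 8 members (10.4%) were lower and 0 higher, where the background over all genes was 3.58% lower and 6.24% higher. No member had withdrawal and control rats that did not overlap, with a background of 0.38% of genes separated downwards and 0.227% upwards. DESeq2 and limma-voom also called 0 members, where over all genes they called 45 of 29134 and 0 of 17637. The lowest adjusted p was 0.427. The 4 red blood cell markers moved with this comparison without overlap, with a summed level of 92.4 to 174 CPM in withdrawal and 183 to 520.4 CPM in control, and their part in the subunits' values was not tested.

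The 8 lower members at an unadjusted p belong to complexes I, III, IV and V. Ndufa5, an accessory subunit of the matrix arm of complex I (NCBI gene 25488, Rnor_6.0 chr4:51590413-51598771), had the lowest p. It ran from 82.7 to 98.9 CPM with a median of 92.9 in withdrawal, and from 98.6 to 106 CPM with a median of 100.0 in control. In 5 of 6 withdrawal rats it lay below every control rat, and the log2 change was -0.13 ± 0.05 (SE, adjusted p = 0.427). Atp5mc3, the most abundant c subunit gene (NCBI gene 114630, chr3:60811218-60813903), ran from 202 to 222 CPM with a median of 207 in withdrawal and from 216 to 238 CPM with a median of 226 in control, and again 5 of 6 withdrawal rats lay below every control rat. Its log2 change was -0.12 ± 0.04 (adjusted p = 0.428). Uqcrfs1, the Rieske iron-sulfur protein of complex III (NCBI gene 291103, chr17:35677984-35682262), ran from 124 to 143 CPM with a median of 139 in withdrawal and from 142 to 151 CPM with a median of 147 in control. The groups overlapped by 1 withdrawal rat, and the log2 change was -0.11 ± 0.04 (adjusted p = 0.437). Uqcrc2, a core protein of complex III, averaged 319 ± 26.6 CPM in withdrawal and 353 ± 16.1 CPM in control, with withdrawal rat 13 lowest at 271 CPM. Atp5f1c, the gamma subunit that turns within the ATP synthase head, averaged 255 ± 12.1 CPM in withdrawal and 277 ± 12.1 CPM in control. Atp5mpl had the largest difference downwards, at 24.9 ± 1.15 CPM in withdrawal and 28.2 ± 2.21 CPM in control, a log2 change of -0.18 ± 0.08 (adjusted p = 0.462), which was 0.12 with the library index as a term. Cox5a, a nuclear subunit of complex IV on the matrix side, averaged 168 ± 12.3 CPM in withdrawal and 183 ± 8.12 CPM in control, a log2 change of -0.12 ± 0.05 (adjusted p = 0.475). Atp5mk, a small membrane subunit, averaged 96.3 ± 7.9 CPM in withdrawal and 105 ± 2.44 CPM in control.

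Subunits that carry catalysis or cofactors followed, at unadjusted p above 0.05. Ndufs1, the largest subunit of the NADH-oxidising arm, which carries iron-sulfur clusters, had a log2 change of -0.11 ± 0.05 (adjusted p = 0.526), and Ndufv1, which binds NADH and FMN, one of -0.10 ± 0.06 (adjusted p = 0.548). Sdha and Sdhb had log2 changes of -0.04 ± 0.06 and -0.01 ± 0.06, and the anchors Sdhc and Sdhd of -0.06 ± 0.05 and -0.05 ± 0.05. Uqcrc1, the other core protein of complex III, differed by -0.02 ± 0.06 and Cyc1, cytochrome c1, by -0.09 ± 0.06. Atp5f1b ran from 1197 to 1261 CPM in withdrawal and from 1216 to 1419 CPM in control, a log2 change of -0.05 ± 0.05 (adjusted p = 0.736). Its 95% interval ran from -0.16 to 0.06 on the log2 scale. The interval lay within 0.32 of 0 for 68 of the 77 members, and for 35.3% of all genes. At a mean level of 30 CPM or more it did so for 93.2% of members and 60.2% of genes. Ndufs4, an accessory subunit of the NADH-oxidising arm, and Cox5b differed by -0.09 ± 0.04 and -0.10 ± 0.06, Atp5f1a by -0.08 ± 0.05, Cox6c by -0.09 ± 0.05, and Ndufa4 and Atp5if1 by -0.03 ± 0.07 each. By complex, the median log2 change was -0.06 in complex I (26 of 35 lower), -0.05 in complex II (4 of 4), -0.09 in complex III (8 of 9), -0.09 in complex IV (9 of 11) and -0.08 in complex V (15 of 18).

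The largest difference upwards was Atp5pb, at 0.40 ± 0.34 on the log2 scale, but it rests on 3 to 15 counts per library (adjusted p = 0.669). Ndufb10, at 0.27 ± 0.19, rested on rat 13, without which it was -0.06, and Ndufb11b, at 0.30 ± 0.39, was -0.19 without that rat. Cox4i1 had 409 to 429 CPM in 5 withdrawal rats and 584 CPM in rat 13, against 386 to 457 CPM in control, and its log2 change of 0.08 became -0.01 without rat 13. Leaving rat 13 out, 72 of 77 members were lower, with a median log2 change of -0.08, and 13 members were lower at an unadjusted p under 0.05. Over all genes that fit had a median of -0.01, and 1527 of 17751 genes were at that p in either direction. Without rats 5, 8, 13 and 17, 68 members were lower with a median of -0.07, 14 of them at an unadjusted p under 0.05. Over all genes the median was then -0.01, and 1368 of 17718 were at that p in either direction. Still 0 members were called in both of these fits.

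The library index limits this comparison. The first index in the library names is shared by rats 1 to 8, another by rats 9 to 16 and a further one by rats 17 and 18, so no index holds both withdrawal and control rats, and the direction turns when index enters the model. With index as a term, the median log2 change of the members was 0.09 and 56 of 77 were higher, 4 of them at an unadjusted p under 0.05 and 0 called. At that p, 2 members were lower. Over all genes that fit had a median of 0.04, and 1027 of 17637 were at that p in either direction. The median of every complex was then above 0. For each gene, that fit joins the difference between ethanol rats 7 and 8 and control rats with the one between withdrawal rats 13 to 16 and ethanol rats 9 to 12. Withdrawal rats 17 and 18, alone in their index, do not enter this difference. Rat 8, with high hindbrain and low dopamine markers, had the highest median deviation of members, 0.17, and rat 7 was at 0.04. The part of rat 8 in the turn was not tested. Of the named members that were lower without index, Atp5f1b (0.07), Atp5if1 (0.01), Atp5mpl (0.12), Cyc1 (0.15), Ndufa4 (0.10), Ndufv1 (0.10), Sdha (0.09), Sdhb (0.13) and Uqcrc1 (0.18) were higher with it. Ndufa5 (-0.09), Atp5mc3 (-0.09), Uqcrfs1 (-0.06), Uqcrc2 (-0.24), Atp5f1c (-0.16) and Cox5a (-0.20) were lower with it too. Index and group cannot be told apart here.

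**Figure D3:**
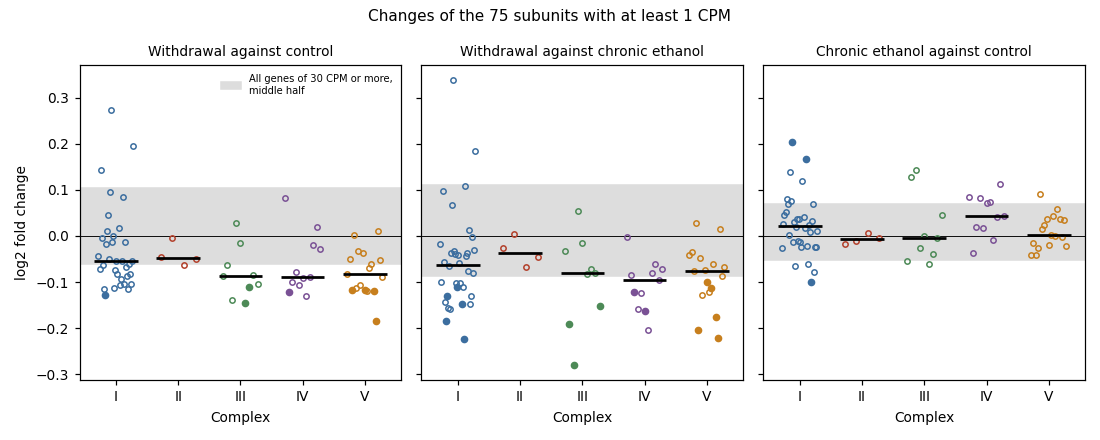
Log2 fold change of the 75 subunits with at least 1 CPM, by complex, in the 3 comparisons (filled points have an unadjusted p under 0.05, bars are medians, the grey band spans the quartiles of all genes with at least 30 CPM). Most points lie below 0 where withdrawal is on top of the fold change, and all lie within 0.34 of 0.

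Withdrawal was compared with chronic ethanol to separate the day without ethanol from the diet before it. This comparison shares the withdrawal rats with the one against control. No subunit was called, with 0% of all genes called as background. At an unadjusted p under 0.05, 15 members (19.5%) were lower and 0 higher, where the background over all genes was 5.95% lower and 9.38% higher. The 15 became 24 without withdrawal rat 13, 23 without chronic ethanol rat 9 and 9 without chronic ethanol rat 10. Over all genes, with both directions counted, 2475 of 17751, 2355 of 17734 and 2454 of 17780 were at that p in these fits. In all, 65 of 77 members were lower, and their median log2 change was -0.07, against 0.02 over all genes and 46.7% of them lower. DESeq2 called 1 member, Ndufc1 (adjusted p = 0.00614), and limma-voom called 0. Over all genes DESeq2 called 277 of 29134, and limma-voom 0 of 17637. With index as a term the members' median was -0.02, with 48 lower, 6 of them at an unadjusted p under 0.05, and 2 higher at that p. Over all genes that fit had a median of 0.03, and 2422 of 17637 were at that p in either direction. The members' median was -0.05 without chronic ethanol rat 8, the rat with the highest subunit levels. It was -0.06 without rats 5, 8, 13 and 17, where 8 members were lower at an unadjusted p under 0.05. Over all genes this last fit had a median of -0.01, and 2322 of 17718 were at that p in either direction.

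Ndufc1, an accessory subunit of the membrane arm of complex I (NCBI gene 689938, chr2:140460749-140464588), differed most clearly. It ran from 63.2 to 76 CPM with a median of 68.8 in withdrawal, from 77.1 to 84.3 CPM with a median of 81.1 in chronic ethanol and from 68.2 to 77.9 CPM with a median of 69.5 in control. All 6 withdrawal rats lay below every chronic ethanol rat, and it was the only member with such a gap, with a background of 0.544% of genes, while 0 members lay wholly above, with a background of 0.811%. The log2 change was -0.22 ± 0.05 (SE, unadjusted p = 0.00072, adjusted p = 0.115). Over the other settings its adjusted p ran from 0.00614 with DESeq2 to 0.315 with index as a term, and it was 0.0584 without rat 13. Against control, chronic ethanol was the higher group, at a log2 change of 0.17 ± 0.05 (adjusted p = 0.676), with 5 of 6 ethanol rats above every control rat. In the test for any difference among the 3 groups, Ndufc1 again had the lowest adjusted p of all members, 0.148, and 0 members were called, whereas DESeq2 called 1, Ndufc1. Over all genes DESeq2 called 267 of 29134 for any difference. At an unadjusted p under 0.05 the edgeR test for any difference held 10 of 77 members (13%), against a background of 11.5%.

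Uqcr11, a small subunit of complex III, had the largest difference downwards. It ran from 63.2 to 85.8 CPM with a median of 73.2 in withdrawal and from 72.8 to 109.8 CPM with a median of 91.3 in chronic ethanol. The groups overlapped, 3 of 6 withdrawal rats lay below every ethanol rat, and the log2 change was -0.28 ± 0.10 (adjusted p = 0.226). With index as a term it was -0.13. Uqcr10, another small subunit of that complex, averaged 67.1 ± 7.88 CPM in withdrawal and 76.6 ± 8.57 CPM in chronic ethanol, and its log2 change of -0.19 became -0.03 with index as a term. Atp5f1e, the epsilon subunit at the foot of the ATP synthase head, ran from 79.9 to 99.9 CPM with a median of 91.9 in withdrawal and from 94.8 to 119 CPM with a median of 103 in chronic ethanol. Its log2 change was -0.20 ± 0.06 (adjusted p = 0.185). Cox6c, a nuclear subunit of complex IV, ran from 182 to 215 CPM with a median of 209 in withdrawal and from 213 to 251 CPM with a median of 226 in chronic ethanol. Here 4 of 6 withdrawal rats lay below every ethanol rat, and the log2 change was -0.16 ± 0.05 (adjusted p = 0.185). Atp5mk averaged 96.3 ± 7.9 CPM in withdrawal and 109 ± 7.47 CPM in chronic ethanol, a log2 change of -0.18 ± 0.06 (adjusted p = 0.186). Ndufa5, lower against control as well, averaged 92.4 ± 5.43 CPM in withdrawal and 101 ± 4.56 CPM in chronic ethanol, a log2 change of -0.13 ± 0.05 (adjusted p = 0.214). The other members lower at an unadjusted p were Atp5mpl, Ndufa3, Ndufb4, Atp5mc3, Ndufb8, Atp5mf, Cox5b and Uqcrq, at log2 changes from -0.22 to -0.10.

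**Figure D4:**
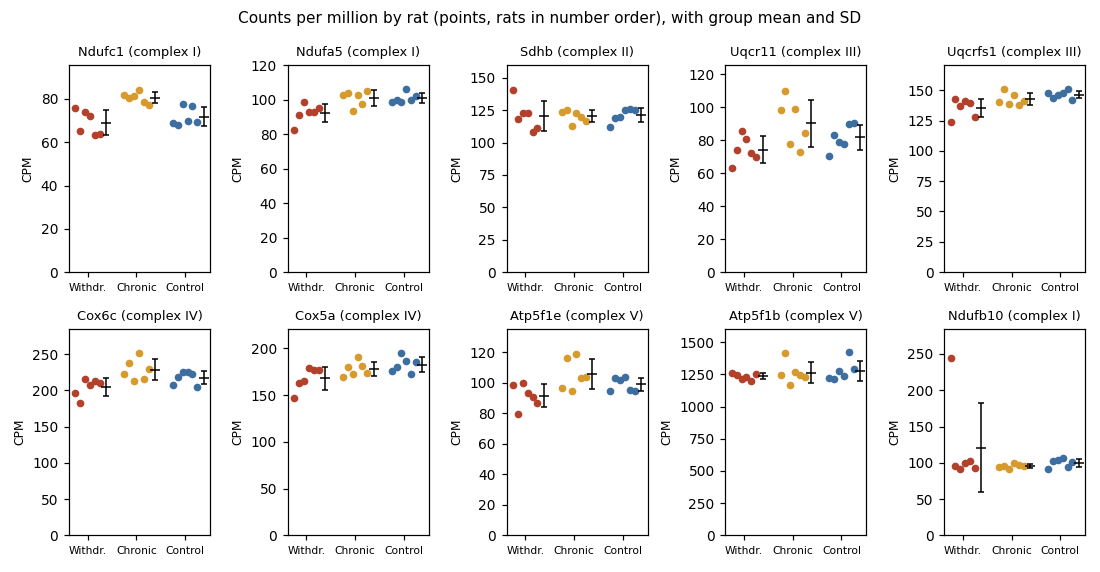
CPM of 10 subunits by rat (points, in the order of rat numbers) with the mean and SD of each group of 6, axes starting at 0. The withdrawal points of Ndufc1 all lie below those of chronic ethanol, the groups overlap in Atp5f1b and Sdhb, and the Ndufb10 mean in withdrawal is raised by rat 13 at 245 CPM.

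All 11 members of complex IV had a lower value in withdrawal than in chronic ethanol, at a median of -0.09 on the log2 scale. Beside Cox6c, Cox5b had an unadjusted p under 0.05, at 176 ± 14.7 CPM in withdrawal and 191 ± 10 CPM in chronic ethanol. Cox4i1 differed by -0.0026 ± 0.0881, by -0.09 without rat 13 and by 0.11 with index as a term, and Cox5a and Ndufa4 by -0.09 ± 0.05 and -0.07 ± 0.07. The medians were -0.06 in complex I (28 of 35 lower), -0.04 in complex II (3 of 4), -0.08 in complex III (8 of 9) and -0.07 in complex V (15 of 18). Sdhb, the member of complex II that was not lower, had 108 to 141 CPM in withdrawal and 113 to 125 CPM in chronic ethanol. Sdhc and Sdhd, the subunits of complex II with the lowest p, differed by -0.07 ± 0.05 and -0.05 ± 0.05, and Sdha by -0.03 ± 0.06. Ndufs1 and Ndufv1 differed by -0.04 ± 0.05 and -0.08 ± 0.06, Uqcrfs1, Uqcrc1 and Cyc1 by -0.07 ± 0.04, -0.02 ± 0.06 and -0.03 ± 0.06, and Atp5f1a, Atp5f1b and Atp5if1 by -0.04 ± 0.05, -0.03 ± 0.05 and -0.05 ± 0.07. Atp5f1b, Cyc1, Sdha and Uqcrc1 were at 0.01, 0.07, 0.03 and 0.07 with index as a term. The 95% interval lay within 0.32 of 0 on the log2 scale for 59 of 77 members and 33% of all genes. At a mean level of 30 CPM or more it did so for 80.8% of members and 56.8% of genes. Ndufb10 and Ndufb11b had the largest differences upwards, 0.34 and 0.40 on the log2 scale, and without rat 13 they were 0.01 and -0.10. Within the index that both groups share, withdrawal rats 13 to 16 against ethanol rats 9 to 12, the median difference over 75 members was -0.03, with 48 of them lower. Over all genes it was 0.02.

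Many subunit transcripts are short, and short transcripts as a whole lay lower in withdrawal than in chronic ethanol. The median log2 change of members with up to 600 bases of exon was -0.11 (31 members), against -0.11 for 74 other genes of that length with at least 30 CPM. Between 600 and 1000 bases it was -0.09 (21 members) against -0.05 (193 genes), and above 1000 bases -0.04 (23 members) against 0.02 (6482 genes). In withdrawal against control the members were at -0.07, -0.06 and -0.06 in the 3 length classes, and the other genes at 0.04, 0.02 and 0.02. In chronic ethanol against control the members were at 0.04, 0.02 and -0.02, and the other genes at 0.14, 0.04 and 0.0019. The part of transcript length in the members' values was not tested.

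**Figure D5:**
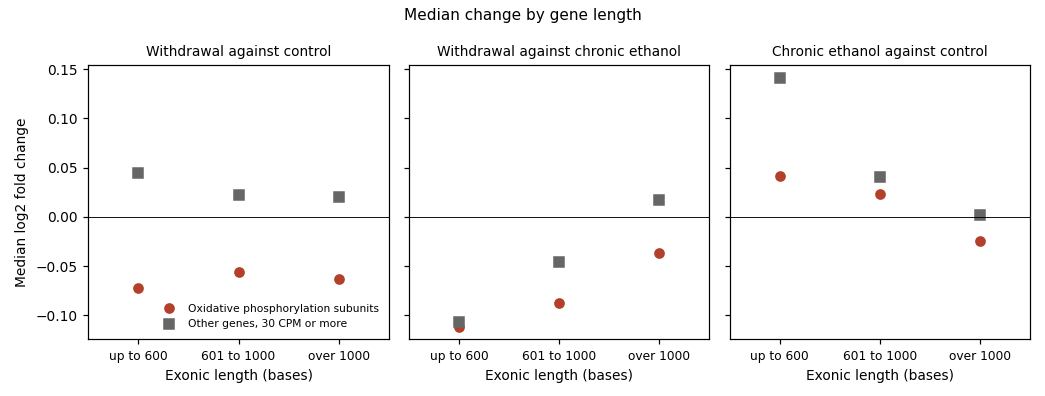
Median log2 fold change by exonic length for the subunits (circles) and for other tested genes with at least 30 CPM (squares), in the 3 comparisons. Subunits and other genes nearly coincide at up to 600 bases where withdrawal is set against chronic ethanol, and stand apart at every length where it is set against control.

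Chronic ethanol was compared with control to ask what differs while ethanol is still given. It shares the chronic ethanol rats with one of the comparisons above and the control rats with the other. Subunits were close to control: 46 of 77 were higher, with a median log2 change of 0.02 against -0.0039 over all genes. No member was called by edgeR, DESeq2 or limma-voom, with 0% of all genes called by edgeR. Over all genes DESeq2 called 43 of 29134 and limma-voom 2 of 17637. At an unadjusted p under 0.05, 2 members (2.6%) were higher and 1 (1.3%) lower, where the background was 3.1% higher and 2.74% lower. No member had groups that did not overlap, with a background of 0.522% of genes separated upwards and 0.408% downwards. The 2 higher ones were Ndufc1, described above, and Ndufa8, an accessory subunit of complex I on the side of the intermembrane space. Ndufa8 ran from 173 to 209 CPM with a median of 185 in chronic ethanol and from 147 to 185 CPM with a median of 164 in control, a log2 change of 0.20 ± 0.08 (adjusted p = 0.834). The lower one was Ndufs4, whose loss causes Leigh syndrome in humans. It ran from 120.0 to 134 CPM with a median of 127 in chronic ethanol and from 128 to 148 CPM with a median of 135 in control, a log2 change of -0.10 ± 0.04 (adjusted p = 0.834).

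By complex the medians were 0.02 in complex I, -0.01 in complex II, -0.0037 in complex III, 0.04 in complex IV (9 of 11 higher) and 0.01 in complex V. The largest difference upwards was again in Atp5pb, at 0.34 on few counts. Ndufs4 and Ndufb11b had the largest differences downwards, both at -0.10. The lowest p values in the other complexes were those of Sdha and Sdhb, at -0.02 and -0.01, Uqcr10 and Uqcr11, at 0.13 and 0.14, Cox6c and Cox8a, at 0.07 and 0.11, and Atp5f1e and Atp5mk, at 0.09 and 0.06. Cox8a, a small subunit of complex IV, was at 0.05 without rat 10, which had 224 CPM of it. The other core subunits lay between -0.06 (Ndufs1) and 0.08 (Cox4i1). The 95% interval lay within 0.32 of 0 for 69 of 77 members and 38.9% of all genes. At a mean level of 30 CPM or more it did so for 93.2% of members and 66.3% of genes. The median was negative, at -0.0197, without chronic ethanol rat 8, at -0.0032 without chronic ethanol rat 10, and at -0.0161 without rats 5, 8, 13 and 17. With index as a term it was 0.08, with 13 members higher at an unadjusted p under 0.05. Over all genes that fit had a median of -0.0042, and 1191 of 17637 were at that p in either direction. Only rats 7 and 8 of the ethanol group then stand against control, and within that index the median difference of 75 members was 0.08, against -0.0014 over all genes. Atp5f1b, Cyc1, Ndufv1, Sdha and Sdhb, lower without index, were at 0.06, 0.08, 0.10, 0.06 and 0.04 with it, and the medians of complexes II and III were above 0.

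Genes that build or feed the complexes were read beside them. Of 46 tested assembly factors, 33 were lower in withdrawal than in control, with a median log2 change of -0.05, and 31 were lower than in chronic ethanol, with a median of -0.04, and 0 were called. The lowest p values were those of Uqcc1 and Dmac1 against control, at -0.14 and -0.18, and of Uqcc2 and Tmem70 against chronic ethanol, at -0.21 and -0.14. Uqcc1 and Uqcc2 help to assemble complex III, Dmac1 complex I and Tmem70 complex V. In chronic ethanol against control, 26 of the 46 were lower with a median of -0.01, and Taco1, a translation factor for a complex IV subunit, and Uqcc2 had the lowest p, at -0.25 and 0.17. The enzymes of pyruvate dehydrogenase and the Krebs cycle, which supply NADH, numbered 16. In withdrawal against control 15 were lower, against 46.3% of all genes, with a median of -0.09. At an unadjusted p under 0.05, 6 of them (37.5%) were lower, against 3.58% of all genes, led by Pdhb and Idh3b at -0.10 and -0.17 (adjusted p = 0.436 and 0.464). In chronic ethanol against control 13 were lower, with a median of -0.08, led by Pdhb and Idh3a at -0.10 and -0.09, and in withdrawal against chronic ethanol 12 were lower, with a median of -0.04, led by Suclg2 at -0.19. No enzyme of this list was called. From its own mean, in log2 CPM, the median enzyme lay at -0.18 in withdrawal rat 13, against -0.05 to -0.01 in the other withdrawal rats. It lay at 0.14 in control rat 5, against 0.02 to 0.06 in the other control rats. The part of these rats in the enzymes' values was not tested.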

How the data were processed

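Per the labels' protocols, VTA tissue was dissected, total RNA was extracted (all RNA integrity numbers above 8.0, per the labels), and stranded polyA mRNA libraries were sequenced in pairs for 101 cycles from each end. The deposited values are counts of read pairs, summed by gene by the authors with featureCounts 1.5.0 over exons on the reverse strand with RefSeq genes of Rnor_6.0, per the file headers. Pairs that matched several places were left out. STAR 2.5.2a, R 3.3.3 and limma are named in the submitters' processing notes. Gene symbols were paired by gene identifier with a RefSeq table of GRCr8, used for names and start regions only, and 29322 of 38445 genes had one.

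Counts were scaled with TMM factors, filtered with filterByExpr (17637 genes kept) and tested with the quasi-likelihood F-test of edgeR 4.0.16 (R 4.3.3) over all 18 libraries, for 3 pairs of groups and for any difference. Tests were two-sided, p-values were adjusted by Benjamini-Hochberg over all tested genes, and a gene was called at an adjusted p under 0.05. The SE is the log2 change divided by the root of F. The fit was first run on simulated counts to test it. Reads carried no molecular identifiers.

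The members and gene lists were chosen with earlier results of these data known. Named in each comparison are members called, the 2 with the lowest p per complex, the 2 largest differences each way, the highest and lowest levels per complex and 14 fixed core subunits. Members singled out for withdrawal rat 13 or an unadjusted p were chosen after their values were seen. Other settings were RLE factors, no filter, 1 CPM in 6 libraries, DESeq2 1.42.0, limma-voom 3.58.1, a robust fit, only the 2 groups compared, the first index as a term, no rats 5, 8, 13 and 17, leaving out single rats, and a threshold of 0.10. The direction counts at an unadjusted p under these settings were added after the data were seen. Subunits encoded by the mitochondrial DNA were not analysed here. A gene of the other lists that the naming rule picks is not reported here.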

Additional observations from a re-analysis of the deposited data

Results flagged for a closer look

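In groups of 6 rats, a value was singled out where the gap between the extreme rat and its nearest neighbour took a share of the group's range above Dixon's 95% critical value. Of 111 groups checked over 37 named members, 12 held such a rat. Chance gives about 5% of groups, but these counts cannot be read against it, since some members were named for large differences that rest on rat 13 and values of 1 rat are not independent. Of the 12, 6 were values of withdrawal rat 13, the library with pineal transcripts.

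In rat 13, Cox4i1 was at 584 CPM (409 to 429 CPM in the other withdrawal rats), Cox8a at 231 CPM (156 to 166 CPM), Ndufa4 at 241 CPM (176 to 187 CPM) and Ndufb10 at 245 CPM (91.5 to 102 CPM). Ndufb11b was also highest there, at 1.32 CPM (0.283 to 0.547 CPM), while Ndufa8 was lowest, at 124 CPM (167 to 186 CPM).

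In chronic ethanol, rat 10 stood above the others for Cox8a, at 224 CPM (174 to 183 CPM), and for Sdhc, at 193 CPM (167 to 174 CPM), and rat 8, with high hindbrain and low dopamine markers, for Sdha, at 425 CPM (345 to 370.3 CPM). In control, rat 5, with high hindbrain markers, stood above the others for Sdha, at 436 CPM (348 to 377 CPM), rat 6 for Uqcrq, at 66.3 CPM (49.8 to 55.3 CPM), and rat 1 for Ndufb11b, at 0.726 CPM (0.319 to 0.444 CPM).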

How the results depend on the processing

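No member was called in withdrawal against control or in chronic ethanol against control under any setting run. In withdrawal against chronic ethanol and in the test for any difference, DESeq2 called 1 member each, Ndufc1, and the other settings, an adjusted p of 0.10 among them, called 0. Over the 29134 genes it took in, DESeq2 called 45 for withdrawal against control and 277 for withdrawal against chronic ethanol. It called 43 for chronic ethanol against control and 267 in the test for any difference. The main edgeR fit called 0 in each. Over 17637 genes limma-voom called 2 for chronic ethanol against control, 2 for any difference and 0 in the comparisons of withdrawal. With index as a term edgeR called 2 for chronic ethanol against control, and without single rats it called up to 24. No paired analysis was possible because rats of different groups share no number.

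The median log2 change of members moved by more than the spread between rats, 0.06, only with index as a term, where it was 0.0928 for withdrawal against control and 0.0844 for chronic ethanol against control. That spread is a wide limit, since the medians in the main fit were -0.0629, -0.0733 and 0.0171. A median can change sign within it, as it did in chronic ethanol against control. Leaving out each rat in turn, the median ran from -0.0905 to -0.0491 for withdrawal against control, from -0.0963 to -0.0482 for withdrawal against chronic ethanol and from -0.0197 to 0.0343 for chronic ethanol against control. Without rats 5, 8, 13 and 17 it was -0.0161 in the last of these. The cause was not tested.

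At an unadjusted p under 0.05, the 8 members lower in withdrawal than in control became 13 without rat 13, 14 without rats 5, 8, 13 and 17, and 2 with index as a term (4 then being higher). Over all genes, with both directions counted, 1527, 1368 and 1027 were at that p in these fits, in the same order. The 15 lower than in chronic ethanol became 24 without rat 13, 23 without rat 9, 9 without rat 10, 8 without rats 5, 8, 13 and 17, and 6 with index as a term (2 then being higher). Over all genes the counts in either direction were then 2475, 2355, 2454, 2322 and 2422, in the same order. For chronic ethanol against control the 2 higher members became 1 without rat 1, 5, 7 or 8 and 13 with index as a term, and the 1 lower became 0 without a filter or without rat 2, 4, 5 or 7. With index as a term, 1191 of all 17637 genes were at that p in either direction. Of 1991 values of named members under other settings, 88 had the other sign and 1 passed the threshold, that of Ndufc1. Few counts limit the values of Atp5pb (3 to 15 per library) and Ndufb11b (6 to 49).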

Other observations

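Of 15 tested regulators of mitochondrial biogenesis, 12 were higher in withdrawal than in chronic ethanol (median log2 change 0.08) and 10 higher than in control (median 0.03), while 0 were called. Yy1 and Nrf1, which encode 2 of the factors whose letters were searched in the start regions, had the lowest p in both. Yy1 averaged 30.5 ± 3.74 CPM in withdrawal, 25.4 ± 1.29 CPM in chronic ethanol and 26.6 ± 1.38 CPM in control (SD, n = 6). Its log2 change was 0.27 against chronic ethanol (edgeR adjusted p = 0.134) and 0.20 against control (adjusted p = 0.43). Nrf1 averaged 22.8 ± 2.51 CPM in withdrawal, 20.3 ± 0.905 CPM in chronic ethanol and 19.9 ± 1.24 CPM in control, with log2 changes of 0.17 (adjusted p = 0.289) and 0.19 (adjusted p = 0.431). Both genes varied most in withdrawal, and their part in the subunits' values was not tested. In chronic ethanol against control 11 of the 15 were lower, with a median of -0.04, and Tfb1m and Tfb2m had the lowest p, at -0.10 and -0.11.

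Coq10a, a ubiquinone-binding protein of the inner membrane, came closest to a call among all lists read here. It averaged 39.3 ± 0.89 CPM in withdrawal, 47.4 ± 3.97 CPM in chronic ethanol and 44 ± 1.94 CPM in control, and its log2 change of -0.27 in withdrawal against chronic ethanol had an edgeR adjusted p of 0.0733. Against control it was -0.16 (adjusted p = 0.401), and chronic ethanol against control was 0.11. The 13 tested genes of ubiquinone synthesis had medians of 0.00 in that comparison, -0.01 in withdrawal against control and 0.01 in chronic ethanol against control, and 0 were called. The next lowest p values of the list were those of Coq9 at -0.11, Coq8a at -0.33 and Coq5 at -0.10, in those 3 comparisons.

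The 72 tested proteins of the mitochondrial ribosome, which makes the subunits encoded by mitochondrial DNA, were split evenly in withdrawal against control, 36 higher and 36 lower, with a median of 0.00. Their medians were -0.01 in withdrawal against chronic ethanol and 0.01 in chronic ethanol against control, and 0 were called in the 3 comparisons. The lowest p values were those of Mrps33 and Mrpl41 against control, both at -0.15, and of Mrps28 and Mrps33 against chronic ethanol, at 0.25 and -0.15. In chronic ethanol against control these were Mrps22 and Mrps31, both at -0.13.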
